A study of Mus musculus with 2 samples.

Results

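The genes described here encode the kinase Cdk5 with its activators, the partners of Lis1 that regulate the dynein motor, and the actin crosslinker filamin A. They were taken from the expression tables by symbol, as rows equal to a member of a fixed list of 9 names, and 8 of the 9 were measured among 20373 listed genes: Cdk5, Cdk5r1, Cdk5r2, Pafah1b2, Pafah1b3, Nde1, Ndel1 and Flna. Pafah1b1, the gene of Lis1 itself, is not analysed here. RNA was sequenced from cortical cells of mouse embryos of embryonic day 15.5. The embryos came from heterozygous Nestin-GFP mice mated to homozygous DCX-mRFP mice and carried both reporters, so the reporter alleles were the same in the 2 groups. Green fluorescent cells were sorted as neural progenitor cells (NPCs) and cells fluorescent in both colours were sorted as neurons, with 1 library of each. The number of embryos behind a library is not stated in the labels. A gate on Nestin or doublecortin (Dcx) reporter fluorescence follows the reporter protein and not the transcripts measured here.

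A young cortical neuron moves by extending a leading process and then pulling its nucleus after it. Cdk5 is a cyclin-dependent kinase that works outside the cell cycle, and it becomes active only when bound to p35 or p39, the products of Cdk5r1 and Cdk5r2. Lis1 and the related proteins Nde1 and Ndel1 bind the dynein motor that draws the centrosome and nucleus forward, and Cdk5 phosphorylates Ndel1. Nde1 and Lis1 also serve dividing progenitors at the spindle, and loss of these genes in humans causes lissencephaly or microcephaly, while loss of filamin A leaves neurons stranded at the ventricle.

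Reads on listed genes summed to 26346226 for NPCs and 23312054 for neurons. Levels are in CPM, counts per 1000000 on the authors' scaling between the libraries, and 1 CPM corresponds to 26.97 NPC reads or 22.8 neuron reads. The log2 ratio is log2((neuron CPM + 1)/(NPC CPM + 1)), a scale on which differences of low genes appear too small, and the comparison covers 12693 genes that reached 1 CPM in either library. Folds of single genes are ratios of CPM without the added value, and the interval beside each is the exact 95% counting interval (Clopper-Pearson). With 1 library per group no difference could be checked in replicates, no p-value was computed, and intervals cover counting error only. The libraries followed their labels in part. All 8 radial glia markers and all 8 markers of dividing cells were higher in NPCs by 2-fold or more, among them Nes at 409 and 189 CPM, Pax6 at 138 and 40.7 and Mki67 at 829.5 and 241. Of 8 neuronal markers 7 were higher in neurons, 4 of them by 2-fold or more, and the median log2 ratio of the list was 1.03. The other marker, Rbfox3, was 1.08-fold higher in NPCs (picked out after its value was known). Dcx, at 2522 and 3294 CPM, and Tubb3, at 1092 and 1961, were abundant in the NPC library too. All 4 intermediate progenitor markers, all 8 interneuron markers and all 7 markers of the oligodendrocyte lineage were lower in neurons, with median log2 ratios of −1.54, −0.57 and −1.62. Fewer cells of a type and less RNA per cell cannot be told apart in such libraries.

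Of the 8 measured genes, 6 were higher in the neuron library, where 49.3% of all genes compared were. The other 2, Nde1 and Flna, were higher in the NPC library. All 8 passed the minimum of 1 CPM, with between 164 and 19722 reads in a library. With 1 CPM added, 1 member reached a 2-fold difference in favour of NPCs and 0 in favour of neurons, where 6.73% and 3.85% of all genes compared did. At least 1.5-fold higher in neurons were 2 members, Cdk5r1 and Cdk5r2, against 10.6% of all genes, and 1 member in NPCs against 13.1%. The median log2 ratio of the members was 0.35, beside −0.0049 over all genes compared. The counting interval lay wholly above or wholly below 1 for all 8 members and for 68.1% of all genes compared. These are not like for like, because intervals narrow with more reads and some genes compared had fewer reads than any member.

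**Figure D1:**
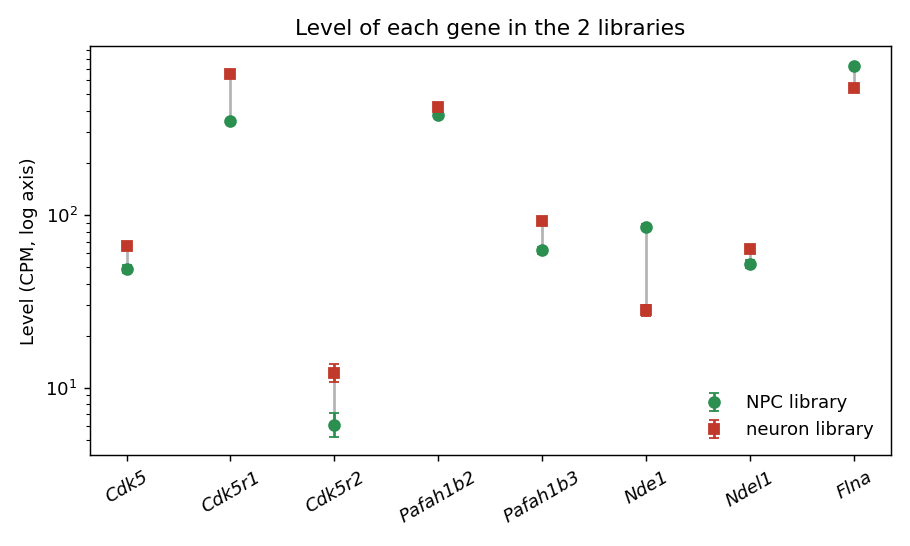
Level of each of the 8 genes in CPM (log axis) in the NPC library (green circles) and the neuron library (red squares), with exact 95% Poisson intervals of the reads, which are smaller than most symbols. Nde1 and Flna were higher in the NPC library and the other 6 in the neuron library, with the widest gap for Nde1 (85.3 and 28.0 CPM).

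The kinase and both of its activators were more abundant in the neuron library, the activators by the larger factor. Cdk5, the catalytic subunit, measured 48.6 CPM in NPCs and 65.8 CPM in neurons. The neuron value was the higher by a fold of 1.35 (1.26 to 1.46). Cdk5r1, the gene of p35, measured 348 CPM in NPCs and 652 CPM in neurons, a fold of 1.87 (1.83 to 1.92). The neuron library was the higher beyond counting error, and the log2 ratio of 0.90 lay above that of 95.04% of the genes compared. Cdk5r2, the gene of p39, measured 6.08 CPM in NPCs and 12.2 CPM in neurons, from 164 and 277 reads. The fold was 2.00 (1.64 to 2.44), and with 1 CPM added the log2 ratio was 0.89, so that Cdk5r2 was not among the genes counted as 2-fold apart. Markers of other cell types were higher in the same library. All 8 microglia markers were higher there, with summed levels of 32.2 CPM in NPCs and 138 in neurons. Of 7 Cajal-Retzius markers 6 were higher there, with summed levels of 148 and 515, and no marker of either list was at 0 reads. Their part in the result was not tested.

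The balance between an activator and its kinase does not depend on scaling between libraries, since both reads come from the same library. There were 7.16 reads of Cdk5r1 per read of Cdk5 in NPCs and 9.92 in neurons. The ratio was thus 1.38 times as high in neurons (exact conditional 95% interval 1.28 to 1.499). Per kilobase of transcript, Cdk5r1 was at 3.54 times the level of Cdk5 in NPCs and 4.91 times in neurons. Reads of Cdk5r2 per read of Cdk5 were 0.125 and 0.185, and this ratio was 1.48 times as high in neurons (1.196 to 1.83). Between the activators the balance was not distinguishable from constant by counting. Cdk5r1 had 57.2 reads per read of Cdk5r2 in NPCs and 53.7 in neurons, with a ratio of 0.938 and an interval from 0.767 to 1.14.

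**Figure D2:**
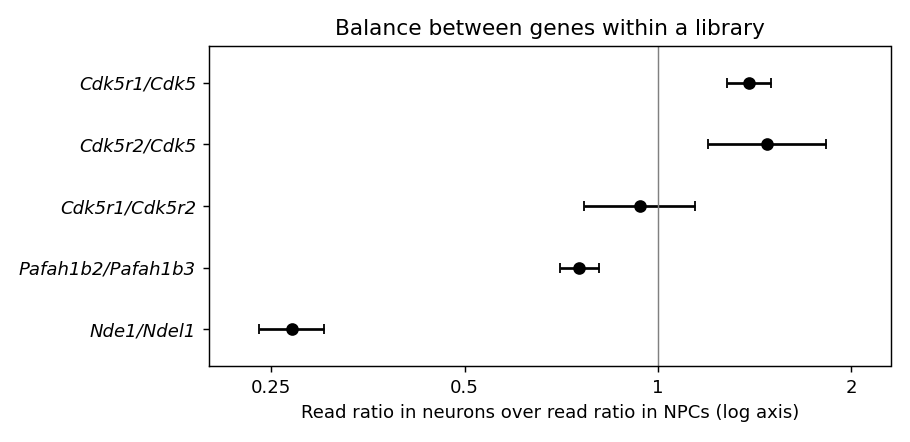
Ratio of the reads of 2 genes in the neuron library divided by the same ratio in the NPC library (log axis), with exact conditional 95% intervals (counting error only). The Nde1/Ndel1 ratio stands at 0.269, the farthest from 1, and of the 5 intervals that of Cdk5r1/Cdk5r2 alone includes 1.

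Most genes for substrates and partners of Cdk5 were higher in neurons, and most other kinases of the Cdk family were higher in NPCs. Of 21 listed substrates and partners 20 passed the minimum, and 15 of these were higher in neurons, where 49.3% of all genes compared were. At least 2-fold higher in neurons were 4, against 3.85% of all genes compared, and in NPCs 0, against 6.73%. The median log2 ratio was 0.41. The microtubule protein tau gene Mapt, at 313 and 870 CPM, had a fold of 2.78 in favour of neurons (2.71 to 2.85). The adaptor gene Dab1, which carries the reelin signal inside migrating neurons, was at 175 CPM in the NPC and 426 in the neuron library, a fold of 2.44 (2.36 to 2.53). The phosphatase inhibitor gene Ppp1r1b and the vesicle scission gene Dnm1 were 2.40-fold and 2.12-fold higher there. Of 14 listed genes of the Cdk family with the cyclin Y gene, 13 passed the minimum. Their median was −0.13, and 10 were higher in NPCs. Of the 3 that were higher in neurons, 0 differed by 2-fold or more. In NPCs 3 genes were at least 2-fold higher, against 6.73% of all genes compared. Those 3 were the cell cycle kinase genes Cdk6 (52.7 and 19.5 CPM, 2.70-fold), Cdk1 (40.15 and 15.9, 2.52-fold) and Cdk2 (37.7 and 15.0, 2.51-fold), and Cdk1 is also among the markers of dividing cells. Cdk14, a kinase that pairs with cyclin Y, was 1.42-fold higher in NPCs. The log2 ratio of Cdk5, 0.43, was higher than that of each of those 13 genes, of which Cdk19 was the highest at 0.25 (picked out after the values were known).

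Genes for the alpha subunits that join Lis1 in the enzyme platelet-activating factor acetylhydrolase were both somewhat higher in neurons, in unequal degree. Pafah1b2, the alpha 2 subunit gene, measured 381 CPM in NPCs and 423 CPM in neurons. The libraries lay close together, at a fold of 1.11 (1.08 to 1.14). Pafah1b3, the alpha 1 subunit gene, measured 62.2 CPM in NPCs and 91.6 CPM in neurons. Its neuron value was the higher by a fold of 1.47 (1.38 to 1.57), and its log2 ratio of 0.55 lay above that of 88.4% of the genes compared. Pafah1b2 had 6.12 reads per read of Pafah1b3 in NPCs and 4.62 in neurons, so that this ratio was 0.754 times as high in neurons (0.703 to 0.810). Per kilobase the order of the pair was the opposite of that in reads, since the longest coding transcript of Pafah1b2 has 6873 bases and that of Pafah1b3 has 901. That order holds for these lengths only, because which transcripts the cells made was not measured. Pafah1b2 was at 0.802 times the level of Pafah1b3 per kilobase in NPCs and 0.605 times in neurons.

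Nde1 and Ndel1, paralogs that both link Lis1 to dynein, went in opposite directions. Nde1 measured 85.3 CPM in NPCs and 28.0 CPM in neurons, from 2301 and 637 reads. It was the member farthest from equality, with an NPC value 3.05 times the neuron value (2.79 to 3.34), with a log2 ratio of −1.58 that lay above that of only 1.83% of the genes compared. Ndel1 was at 52.0 CPM in NPCs and at 63.3 in neurons. Its values lay closer together, and that of neurons was the higher by a fold of 1.22 (1.13 to 1.31). Within the NPC library there were 1.64 reads of Nde1 per read of Ndel1, and within the neuron library 0.442. The ratio was 3.71 times as high in NPCs (3.31 to 4.17), so that Nde1 was the more abundant paralog in the NPC library and Ndel1 in the neuron library. The same order held per kilobase, with ratios of 1.67 and 0.451. Markers of dividing cells, radial glia and intermediate progenitors all moved with Nde1, with median log2 ratios of −1.51, −1.57 and −1.54. All 8 markers of dividing cells were higher in NPCs, from 2.51-fold for Plk1 to 3.44-fold for Mki67, and the fold of Nde1 lay within that range. Those 8 had summed levels of 1564 CPM in NPCs and 499 in neurons, with none at 0 reads. The part of these 3 cell groups in the result was not tested.

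The sequence before each start site is shown for this pair, because these paralogs diverged most between the libraries. The letters are those of RefSeq for the mouse build GRCm38.p6, read on the strand of the gene and ending toward its start. The Ndel1 window covers chr11:68853136-68853385 (minus strand) and ends at the base before the start. The Nde1 window covers chr16:14163025-14163220 (plus strand), without the last 54 bases before the start, because these lie in the untranslated first exon of a transcript of Marf1 on the opposite strand. Capitals mark GGGCGG, the GC box bound by Sp factors, and CACGTG, a palindromic E-box, on either strand.
Nde1: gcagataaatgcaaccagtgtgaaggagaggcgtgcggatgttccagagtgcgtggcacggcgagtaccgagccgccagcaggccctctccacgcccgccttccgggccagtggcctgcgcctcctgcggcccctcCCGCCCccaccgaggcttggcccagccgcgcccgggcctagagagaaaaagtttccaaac
Ndel1: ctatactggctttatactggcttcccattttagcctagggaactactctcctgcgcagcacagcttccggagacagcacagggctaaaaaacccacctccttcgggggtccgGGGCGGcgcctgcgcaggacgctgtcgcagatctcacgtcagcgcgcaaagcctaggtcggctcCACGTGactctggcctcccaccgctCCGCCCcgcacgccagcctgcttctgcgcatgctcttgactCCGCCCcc

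The GC box occurred 1 time in the 250 bases before Nde1 and 3 times before Ndel1, and also 3 times before Flna. It occurred at least once in 32.7% of 32851 such windows over all genes and in 58.1% of the 11745 windows of genes past the 1 CPM minimum. At least 2 copies were present in 16.7% and 32.5% of these windows. The E-box CACGTG occurred once before Ndel1, 69 to 74 bases from the start, and in 6.02% of all windows and 8.28% of those of expressed genes. Nde1 had 1 CCAAT box on the opposite strand, 33 to 37 bases from the start in the part not shown, and 33.8% of all windows and 35.5% of those of expressed genes had at least 1. These motifs were chosen after the sequences were seen, and a match of letters is not a binding site. Marf1, a regulator of RNA in germ cells whose first exon shares 77 bases with that of Nde1, is listed under the older symbol 4921513D23Rik at 205 and 191 CPM. It was 1.07-fold higher in NPCs (1.03 to 1.12) beside 3.05-fold for Nde1. Whether reads were counted by strand is not given in the sources used here, so reads over the shared bases cannot be assigned to either gene.

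Windows were found for 5 of the 8 genes, 4 of them with a single start. The ratio of observed to expected CpG was 0.851 for Cdk5r2, 0.855 for Nde1, 0.827 for Ndel1 and 0.604 for Flna, against a median of 0.373 over all windows and of 0.717 over those of expressed genes. Pafah1b2 had 4 annotated starts with ratios from 0.352 to 0.966. The ratio of Flna lay below the median of expressed genes and those of Cdk5r2, Nde1 and Ndel1 above it. Counted on either strand, the word TATAAA was found before Ndel1 alone among the windows of the 5 genes. This match lay on the opposite strand, near the end of the shown sequence farthest from the start, where it reads tttata. The word was found in 12.4% of all windows and 6.15% of those of expressed genes. CAGCTG, a further E-box, was found before Cdk5r2 and before 1 of the Pafah1b2 starts, with 13.0% and 11.9% in the same order. The word TTTGAA, part of a cell cycle promoter element, was found before 1 of the Pafah1b2 starts. It was absent from the other windows of the 5 genes, that of Nde1 among them. Over all windows it was present in 16.0%, and in 10.3% of those of expressed genes. Bases after the start were not searched.

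On the scale with 1 CPM added, within 1.5-fold of equality lay 15 of the 16 listed partners of Lis1 and Nde1 and 21 of the 22 dynein and dynactin subunits, as did 76.3% of all genes compared. All 16 partners on the list passed the minimum, and the median log2 ratio was −0.093. Of these, 5 were higher in neurons, where 49.3% of all genes compared were, and 11 in NPCs. The member at least 2-fold apart was Cenpf, a kinetochore protein that binds Nde1, at 192 and 63.7 CPM, with a fold of 3.02 in favour of NPCs (2.84 to 3.20). Its log2 ratio of −1.58 lay beside that of Nde1. The scaffold gene Disc1 was at 0.8155 and 1.58 CPM from 22 and 36 reads (1.94-fold higher in neurons, 1.11 to 3.46). Nudcd2, a chaperone cofactor, was 1.42-fold higher in NPCs and Clip1, a microtubule plus-end protein, 1.40-fold higher in neurons. Of 22 dynein and dynactin subunits 15 were higher in neurons, beside the same 49.3% of all genes, with a median of 0.15. Against 10.6% of all genes compared, 1 subunit was at least 2-fold apart. This was Dync1i1, the intermediate chain form enriched in neurons, at 29.8 and 81.2 CPM, with a fold of 2.73 in favour of neurons (2.51 to 2.97). The dynactin gene Dctn1 and the light chain gene Dynll2 were 1.46-fold and 1.31-fold higher in neurons, and Dynlt3 was 1.31-fold higher in NPCs. The heavy chain gene Dync1h1 was at 1784 and 1712 CPM, and it was picked out after its values were known. The near-identical light chain copies Dynlt1a, Dynlt1b, Dynlt1c and Dynlt1f are uncertain, because reads could have been split among them.

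**Figure D3:**
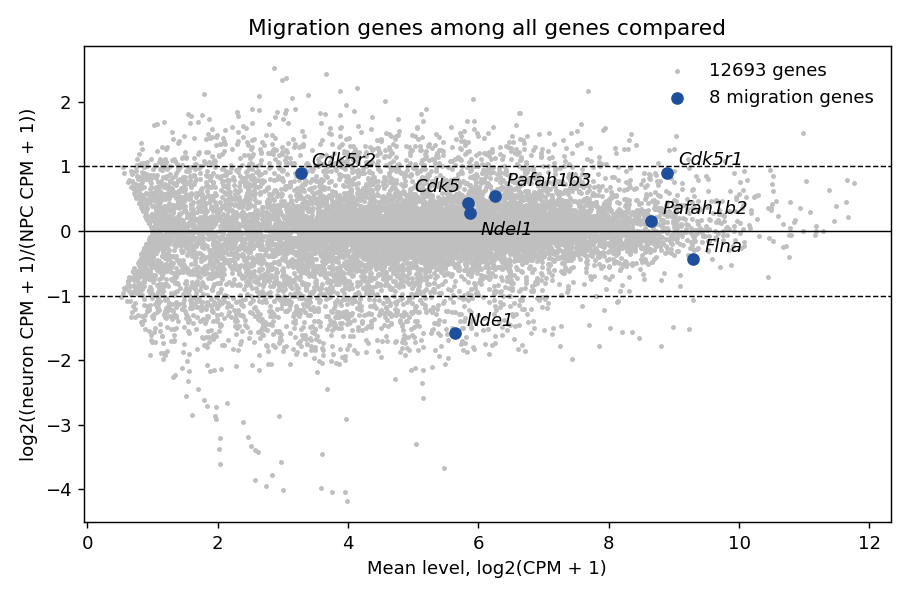
The log2 ratio of neuron to NPC (1 CPM added) against the mean level as log2(CPM + 1) for the 12693 genes compared (grey) and the 8 genes described here (blue), with dashed lines at 2-fold. Nde1 (−1.58) is the 1 blue point beyond a dashed line, and Cdk5r1 (0.90) and Cdk5r2 (0.89) lie just inside the upper line.

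Flna, the gene of the actin crosslinker filamin A, was abundant in both libraries and lower in neurons. It measured 731 CPM in NPCs and 539 CPM in neurons. The NPC value was the higher by a fold of 1.36 (1.33 to 1.39), with a log2 ratio of −0.44. Its paralog Flnc, the muscle form, lay farther apart at 20.9 and 4.61 CPM, a fold of 4.54 in favour of NPCs (3.68 to 5.64). Of 11 other filamin genes and partners 9 were higher in NPCs, while 49.3% of all genes compared were higher in neurons. With 1 CPM added, 2 of the 9 were at least 2-fold higher in NPCs, against 6.73% of all genes compared. The median log2 ratio was −0.46, or −0.20 with 5 CPM added in place of 1. The partner gene Fam101a, for a filamin-binding refilin, was at 1.41 and 0.264 CPM from 38 and 6 reads, and Fblim1, for a filamin-binding adhesion protein, was 2.04-fold higher in neurons from 65 and 112 reads.

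Most markers of vessel wall and meninges, whose cells also make filamins, were lower in the same library as Flna. All 8 radial glia markers were lower there too, with a median log2 ratio of −1.57. Of 8 pericyte and smooth muscle markers 6 were higher in NPCs by 2-fold or more, with summed levels of 287 CPM in NPCs and 26.6 in neurons. The other 2, Acta2 (1.89 and 2.11 CPM) and Tagln (1.78 and 1.84), were not lower in neurons, and they were picked out after their values were known. The defining receptor gene Pdgfrb was at 54.0 and 2.33 CPM. The endothelial list summed to 20.4 and 3.12 CPM, with Pecam1 at 2.15 and 0.395, and 6 of its 7 genes past the minimum were at least 2-fold higher in NPCs. The meningeal list summed to 25.6 and 1.93 CPM, and all 4 of its genes past the minimum were at least 2-fold higher in NPCs. No marker of these lists was at 0 reads in either library. Their part in the filamin result was not tested.

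The order of the 8 genes by level is read per kilobase of the longest coding transcript in GENCODE vM21, since the annotation behind the deposited values is not given in the sources used here. In the NPC library Flna stood highest at 86.5 CPM per kilobase, followed by Cdk5r1 (83.6), Pafah1b3 (69.1), Pafah1b2 (55.4), Nde1 (36.5), Cdk5 (23.6), Ndel1 (21.8) and Cdk5r2 (2.17). The exact 95% Poisson intervals of Flna and Cdk5r1 overlapped there, as did those of Cdk5 and Ndel1. In the neuron library Cdk5r1 stood highest at 157 CPM per kilobase, followed by Pafah1b3 (102), Flna (63.8), Pafah1b2 (61.5), Cdk5 (32.0), Ndel1 (26.6), Nde1 (11.97) and Cdk5r2 (4.34). The intervals of Flna and Pafah1b2 overlapped. Nde1 thus moved from the fifth to the seventh place and Cdk5r1 from the second to the first. Among 11485 genes past the minimum with a coding transcript length, Cdk5r1 lay above 98.3% in the neuron library, Flna above 92.3% and Cdk5r2 above 29.4%, so that the gene of p39 was far scarcer than the gene of p35 in both libraries. The longest identical stretch between coding transcripts of a pair of paralogs was 18 bases for Nde1 and Ndel1, 23 for Cdk5r1 and Cdk5r2, at most 12 for Pafah1b2 and Pafah1b3 and 26 for Flna and Flnc.

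Among 24 genes in which mutations disturb cortical folding or neuronal placement, 19 had the higher level in neurons and 5 in NPCs. Of all genes compared, 49.3% were higher in neurons. The median log2 ratio of the 24 genes was 0.33, and 2 were at least 2-fold higher in neurons, against 3.85% of all genes compared. Reln, whose secreted product guides migrating neurons, was at 95.8 and 434 CPM (4.53-fold, 4.34 to 4.74) and is also a marker of Cajal-Retzius cells. Ctnna2, a catenin of neurons, was 2.03-fold higher in neurons (1.96 to 2.11), the reelin receptor gene Vldlr 1.95-fold and the tubulin gene Tubb3 1.80-fold. Cdk5r1 lay near these last 2 genes at 1.87-fold.

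**Figure D4:**
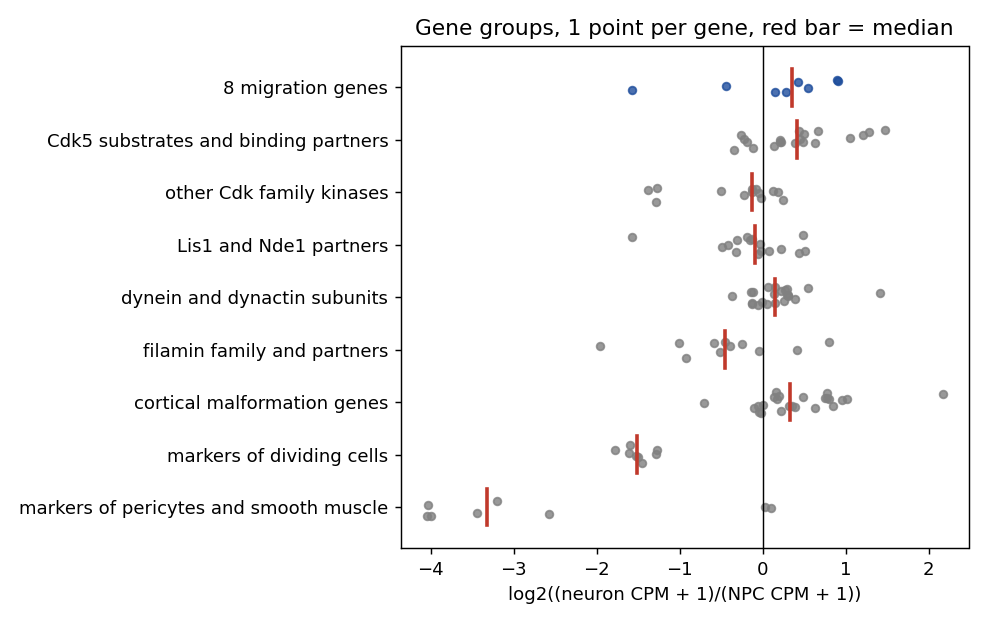
The log2 ratio of neuron to NPC with 1 CPM added, 1 point per gene past 1 CPM, for the 8 genes described here (blue) and for lists of related genes and of markers (grey), with red bars at list medians. The medians run from 0.41 for Cdk5 substrates and partners to −1.51 for dividing cells and −3.33 for pericytes and smooth muscle.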

How the data were processed

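RNA sequencing of 2 sorted populations, with 1 library each, was used. The deposited values are a signal per gene, given by symbol. TopHat 1.2.0, CASAVA 1.9, edgeR (unversioned), SAMtools 0.1.18 and the build mm9 appear in the submitters' processing notes, with no role or order. The authors' values were whole multiples of 1 step per library (0.952727 for NPCs and 1.12797 for neurons). Values divided by it were whole to within 0.05 reads for 100% and 99.9656% of genes, and neuron values under 0.01 were taken as 0. Each of 3 symbols stands on 2 rows, none of them named here.

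CPM were obtained by dividing both libraries by 1 constant, the mean of their sums (25698104), so the authors' scaling was kept. A count test on the recovered reads was not fitted, since 1 library per group leaves no estimate of spread. Python 3.11.15, scipy 1.17.1 and, for trimmed mean of M-values (TMM) and upper quartile factors, edgeR 4.0.16 in R 4.3.3 were used, and the calculations were tested on simulated data. The floor of 3 reads lies at 0.111 CPM for NPCs and at 0.132 for neurons. Intervals cover counting error only and treat each read as independent. As reads carried no stated molecular identifiers, repeated reads of the same molecule would make these intervals too narrow.

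Members, gene lists and tests were chosen with earlier results of these data known. The text names all members, the paralog Flnc, from each list up to 4 genes farthest from a log2 ratio of 0, and defining markers, and states where another gene was chosen after its value was seen. Older symbols were found through RefSeq synonyms. Lis1 itself and a few other genes are not reported here.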

Additional observations from a re-analysis of the deposited data

How the results depend on the processing

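The 8 members kept the direction of their log2 ratio with scaling by total reads, TMM or upper quartiles. Of these 24 values, 21 moved by no more than the log2 distance from the middle of the counting interval to its end. Neither another added value nor another filter can turn a member's direction. The other 3 values came from scaling by total reads, which shifts the median of all genes to −0.069: Cdk5r1 at 0.84, Pafah1b2 at 0.083 and Flna at −0.51. Counts of members past 2-fold and 1.5-fold did not move. The log2 ratio of Nde1 ran from −1.64 to −1.45 and that of Cdk5r2 from 0.63 to 0.94. Over all genes compared, a 2-fold difference was reached by 489 in favour of neurons and 854 in favour of NPCs. With 5 CPM added these counts were 238 and 399, and with a minimum of 10 CPM 548 genes reached it in favour of NPCs. Ratios between members are the same in reads and in deposited values by construction, since 1 step scales a library. The median log2 ratio of filamin family genes and partners was −0.20 with 5 CPM added, against −0.46. No paired analysis was possible because each group has 1 library. The precision is limited by the single library per group and, for Cdk5r2, by 164 reads in NPCs.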
